A study of Caenorhabditis elegans with 12 samples.

Results

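The hsp-16 genes of the nematode Caenorhabditis elegans encode small heat shock proteins, and the windows that ETS-5 precipitates placed at 6 of them are described here. The 6 genes are hsp-16.1, hsp-16.11, hsp-16.2, hsp-16.41, hsp-16.48 and hsp-16.49, all on chromosome V, out of 19971 protein-coding genes of the nuclear chromosomes. They were taken because they belong to the family and had windows nearby in these same lists, so the presence of windows at them is how they were chosen and not a finding. A gene counted as near a window when any part of the window lay in the gene span or at most 2000 bp from either end.

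The series measured genome binding by chromatin immunoprecipitation and sequencing of whole-worm extracts. Its 12 samples form 4 groups of 3, an input and a precipitate each for the wild-type strain N2 and for the strain FQ237, which the series title describes as ets-5-gfp. All groups were grown on the bacterium E. coli OP50, and the antibody in every label is directed against green fluorescent protein. The lists of the 3 ETS-5 precipitates were used, and the other 9 samples were not analysed here. The labels do not give the developmental stage, the sex, a temperature, or how the tag was introduced. They also do not say whether replicates are independent cultures, and the spread between them may be technical. No heat treatment is mentioned in the labels. With no control list, no difference from the wild type or from input was computed, and windows present in untagged worms as well cannot be told apart from ETS-5 windows.

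Small heat shock proteins are chaperones that hold unfolding proteins without using ATP and carry a conserved alpha-crystallin domain. In this worm the hsp-16 genes are nearly silent under normal growth and are strongly induced by heat and other stress through the heat shock factor HSF-1, and promoters of the family are widely used as inducible reporters. They are known to lie in pairs transcribed away from each other from a short stretch between them, and hsp-16.1 with hsp-16.48 is known to be repeated in inverted order as hsp-16.49 with hsp-16.11. The ETS-family factor ETS-5 is known for its role in the BAG neurons, which sense respiratory gases.

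Each list holds windows of 400 bp whose middle is taken as the summit, with 3811, 2915 and 3697 windows in replicates 1 to 3. The lists carry no heights, p-values or read counts, so the depth behind a window is unknown and a missing window says only that the list holds none there. Merging windows that overlapped by at least 1 bp gave 5455 regions, and the 1788 regions with windows from every replicate are called shared. Genome positions of windows are those of the files, counted from 1, and no source used here states their build. Gene positions came from the RefSeq table of WBcel235, and distances to genes rest on the match of both systems. On chromosome V, 32.0% of 297 shared regions had their centre inside a protein-coding gene as deposited. The share was 32.3% and 33.0% after shifts of 100 bp to the left and right, and 60.9% and 63.6% after shifts of 5000 bp. These shares cannot tell an offset of about 100 bp from none. Shorter distances between summits and genes therefore rest on the assumed match.

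The hsp-16 genes held 14 distinct windows, namely 5, 3 and 6 in replicates 1 to 3 (4.67 ± 1.53, SD, n = 3). Because neighbouring genes share windows, counting each gene alone would give 42 pairings of a gene and a window. The 14 windows formed 7 regions. Of these, 3 were shared, 1 held replicates 1 and 3, and the remaining 3 came from 1 replicate each. All 6 genes lay near a shared region, the condition they were chosen on, where 9.79% of all protein-coding genes did. Near a window of a given replicate lay 17.6% of all protein-coding genes in replicate 1, 14.8% in replicate 2 and 18.9% in replicate 3, and all 6 hsp-16 genes in each. The farthest was hsp-16.2, whose nearest window in replicate 2 lay 941 bp away. The nearest heat shock gene beyond the 2000 bp limit was stc-1, an Hsp70-like gene whose nearest windows lay 2107, 2085 and 2113 bp away.

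**Figure D1:**
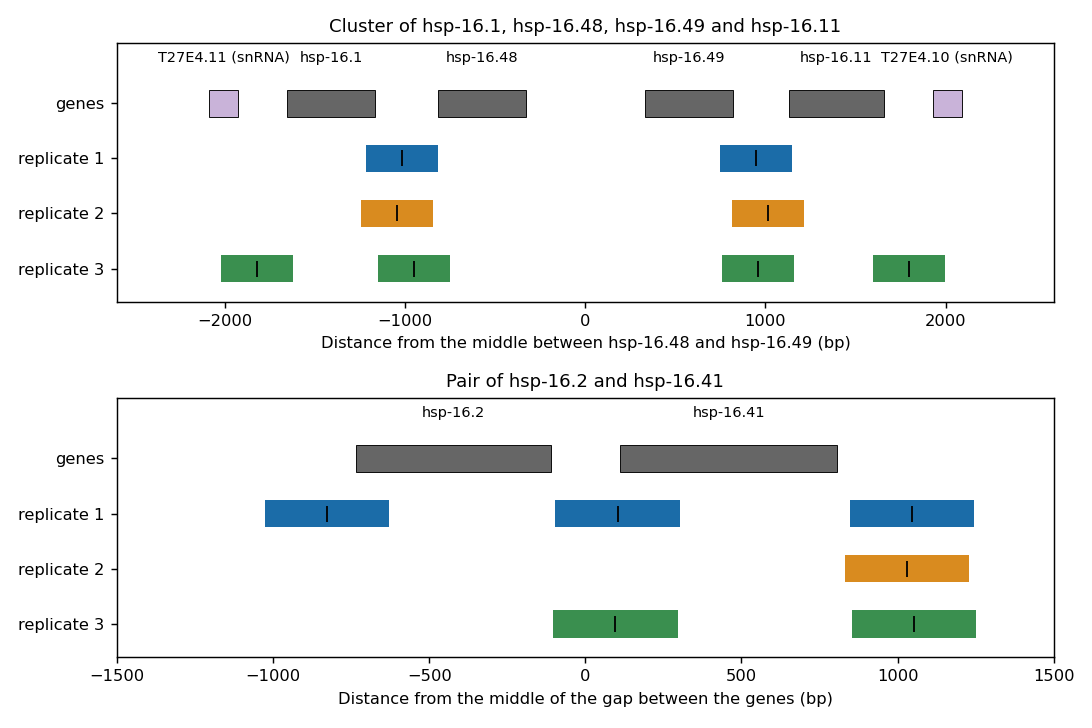
Windows of the 3 ETS-5 precipitates at both hsp-16 clusters, as distance in bp from the middle of each cluster. Grey boxes are hsp-16 genes, pale boxes small nuclear RNA (snRNA) genes, coloured bars the 400 bp windows of each replicate and black ticks their centres. In all 3 replicates a window sits in each gap of the upper cluster that separates an outer from an inner gene, and the gap between hsp-16.2 and hsp-16.41 holds one in replicates 1 and 3.

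The place of the windows was read against the short gaps between paired genes. Of the 14 windows, 8 (57.1%) had their centre in the gap of a pair, with 3, 2 and 3 of them in replicates 1 to 3. Shared regions lay in 2 of the 3 pair gaps. The other 6 windows lay at the outer ends of pairs, and none had its centre inside an hsp-16 gene. For scale, 4421 gaps of 100 to 500 bp separate neighbouring protein-coding genes in the genome, whatever their orientation, and 1.24% of them held the mean centre of a shared region. A window centre of replicate 1 lay in 1.90% of those gaps, one of replicate 2 in 2.08% and one of replicate 3 in 3.64%. Of all shared regions, 3.08% had their mean centre in such a gap. The mirrored 4-gene cluster, whose sides may not be separate sites, held 6 of the 8 windows. Since these windows also chose the genes, nothing is read from the contrast.

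The gap between hsp-16.1 and hsp-16.48 is 348 bp long and held a shared region at 9087705 to 9088197 of chromosome V. The window of replicate 1 ran from 9087729 to 9088128, with 346 bp in the gap and 54 bp inside hsp-16.1. That of replicate 2 ran from 9087705 to 9088104, with 322 bp in the gap and 78 bp inside hsp-16.1. In replicate 3 it ran from 9087798 to 9088197, with 333 bp in the gap and 67 bp on the other side, inside hsp-16.48. The summits of replicates 1 and 2 thus lay closer to hsp-16.1, at 146.5 and 122.5 bp, and that of replicate 3 closer to hsp-16.48, at 133.5 bp. The 3 centres spanned 93 bp, and 78.6% of all shared regions had centres in a narrower span.

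The gap between hsp-16.49 and hsp-16.11, 310 bp long, held a shared region at 9089694 to 9090163. The windows started at 9089694 in replicate 1, 9089764 in replicate 2 and 9089706 in replicate 3, and each covered all 310 bp of the gap. Replicates 1 and 3 had their summits nearer hsp-16.49, at 127.5 and 139.5 bp, while replicate 2 had its summit nearer hsp-16.11, at 113.5 bp. The centres spanned 70 bp, a span wider than in 68.0% of shared regions. The median span of all shared regions was 47 bp. The stretch of 662 bp between the inner genes hsp-16.48 and hsp-16.49 held no window centre in any list.

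The gap between hsp-16.2 and hsp-16.41 was the shortest of the 3, at 220 bp. It held a window from 1804971 to 1805370 in replicate 1 and from 1804964 to 1805363 in replicate 3, with centres 7 bp apart. These windows left the gap on the side of hsp-16.41, with 193 and 186 bp inside that gene and none inside hsp-16.2, and their summits lay 7.5 and 14.5 bp from its end. Replicate 2 had no window there. A shift of the coordinates by 100 bp to the right would put both summits inside hsp-16.41.

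The shared region of this pair lay outside it. At 1805898 to 1806320 all 3 replicates had a window beyond the outer end of hsp-16.41, with centres 238.5, 222.5 and 245.5 bp from the gene in replicates 1 to 3. None of these windows reached into a gene of the family. Their centres spanned 23 bp, and only 20.5% of shared regions had a narrower span. Past this region lies srt-42, a gene of a chemoreceptor family, 1584 bp from the end of hsp-16.41, and it too lay near the region. At the opposite end of the pair, replicate 1 alone had a window, from 1804040 to 1804439, with 106 bp inside hsp-16.2. This window also lay near srt-41, the neighbour on that side, 1190 bp from the pair. The windows of replicates 1 and 3 in the gap of the pair lay near srt-41 as well.

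The cluster of 4 genes is laid out as a mirror image, and the distances of its windows from the axis were compared between the sides. In the gene table, the middle between hsp-16.48 and hsp-16.49, the middle between the outer ends of hsp-16.1 and hsp-16.11, and the middle between the flanking snRNA genes T27E4.11 and T27E4.10 all fall at the same position, with a difference of 0 bp. The inner genes are 487 bp long each, while hsp-16.1 has 490 bp and hsp-16.11 has 528 bp. In replicate 1 the gap windows had their centres 1020 bp to the left and 945 bp to the right of this axis. They lay 1044 and 1015 bp away in replicate 2, and 951 and 957 bp away in replicate 3. The mismatch between the sides was thus 75, 29 and 6 bp in replicates 1 to 3. Windows centred in mirrored gaps must lie at roughly like distances, so nothing is read from small mismatches. In replicate 1 the left summit lay nearer the outer gene hsp-16.1, and the right one nearer the inner gene hsp-16.49. In replicate 2 both lay nearer the outer genes, and in replicate 3 both nearer the inner genes.

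Replicate 3 had a further mirrored pair of windows at the outer ends of the cluster. One ran from 9086925 to 9087324 and shared 32 bp with hsp-16.1 and 97 bp with T27E4.11. Its counterpart ran from 9090547 to 9090946 and shared 58 bp with hsp-16.11 and 71 bp with T27E4.10. Their centres lay 1824 and 1798 bp from the axis, a mismatch of 26 bp. The window at hsp-16.11 also lay near T27E4.1, the next protein-coding gene on that side, 1740 bp from the cluster. Replicate 3 overlapped 29 of the 129 snRNA genes of the genome (22.5%), against 10 in replicate 1 (7.75%) and 5 in replicate 2 (3.88%). The part of the snRNA genes in these outer windows was not tested.

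**Figure D2:**
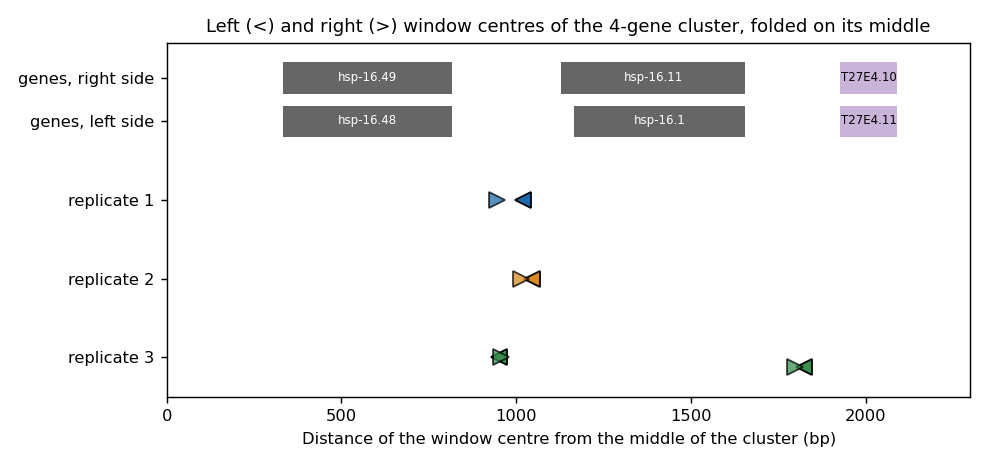
Distance in bp of each window centre from the middle of the 4-gene cluster, with the left side folded onto the right. Triangles pointing left and right are windows of the left and right side, one row per replicate, and boxes are the genes of each side. The gap windows of both sides lie 75, 29 and 6 bp apart in replicates 1 to 3, and the outer windows of replicate 3 lie 26 bp apart.

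The copies are known as near-identical, so a read from one can map to the other. Their sequences were not compared here. No source used here says how such reads were placed or filtered. Windows on the left and right of the 4-gene cluster therefore cannot be counted as separate sites, and the 8 windows there may stand for fewer. The part of shared reads in these windows was not tested. The pair of hsp-16.2 and hsp-16.41 lies elsewhere on chromosome V, with 3 windows in replicate 1, 1 in replicate 2 and 2 in replicate 3.

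Beyond both clusters the next window on either side lay at least 15393 bp away in every list. To the left of the 4-gene cluster the next window lay 137084 bp away in replicate 1, 137087 bp in replicate 2 and 191504 bp in replicate 3. On its right the next lay 21300, 21357 and 21302 bp away. Around the pair of hsp-16.2 and hsp-16.41 the next windows lay 27271, 27233 and 28759 bp to the left and 15393, 15398 and 15401 bp to the right. Neighbouring centres on chromosome V were a median of 14256, 21049 and 14201 bp apart in replicates 1 to 3.

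The spacing of windows within the clusters differed between replicates. Since the windows were taken for lying near genes of compact clusters, their closeness is partly fixed by that choice and nothing is read from the shares of the full lists. All 6 hsp-16 windows of replicate 3 had another centre of the same list within 1000 bp, as did 3 of 5 in replicate 1 and 0 of 3 in replicate 2. Over the full lists 10.8% of windows of replicate 3 had one, 7.69% of replicate 1 and 7.48% of replicate 2. The neighbouring centres at the pair were 931 and 943 bp apart in replicate 1 and 957 bp apart in replicate 3. On each side of the 4-gene cluster, the outer and the gap window of replicate 3 lay 873 and 841 bp apart. The windows of the facing gaps lay farther apart, at 1965, 2059 and 1908 bp in replicates 1 to 3. Near the inner genes hsp-16.48 and hsp-16.49 there were 2, 2 and 4 windows each in replicates 1 to 3, and near hsp-16.2 and hsp-16.41 there were 3, 1 and 2.

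The lists are not in order of position, and no source says what their order stands for. At the hsp-16 gaps the place in the list differed between replicates. The window between hsp-16.1 and hsp-16.48 stood at lines 529, 1802 and 155 of replicates 1 to 3, or 13.9%, 61.8% and 4.19% of the way down. The window between hsp-16.49 and hsp-16.11 stood at line 795, 1478 and 185, or 20.9%, 50.7% and 5.0%. Both were earliest in replicate 3 and latest in replicate 2, as were 387 of all 1788 shared regions (21.6%). The distance from the earliest to the latest place was 57.6 percentage points for the former and 45.7 for the latter. Of all shared regions 10.3% and 22.0% spread at least that far, and the median spread was 28.8 points.

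The window between hsp-16.2 and hsp-16.41 was at line 1175 of replicate 1 (30.8%) and line 320 of replicate 3 (8.66%). Replicate 2, where the windows of the other gaps came latest, had none. The region beyond hsp-16.41 behaved otherwise, at line 921, 1124 and 1385, or 24.2%, 38.6% and 37.5%. Its spread of 14.4 points was matched or exceeded by 77.0% of shared regions. Within replicate 3 all 3 gap windows came before it, and within replicate 2 it came before both gap windows. The outer windows found in 1 replicate only stood beyond the middle of their lists, as did both gap windows of replicate 2. These outer windows were at line 2617 of replicate 1 (68.7%) at hsp-16.2, line 3495 of replicate 3 (94.5%) at hsp-16.1 and line 1986 of replicate 3 (53.7%) at hsp-16.11. They were not compared with other windows found in 1 replicate only.

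The places varied widely between replicates for the shared gap regions, and less for the region beyond hsp-16.41. The gap of hsp-16.1 and hsp-16.48 came at 26.6% ± 30.9 (SD, n = 3), that of hsp-16.49 and hsp-16.11 at 25.5% ± 23.2 and the region beyond hsp-16.41 at 33.4% ± 8.01. The order of these means depends on which replicates are used. Without replicate 2 the gaps come at 9.04% and 12.9%, beside 30.8% for the region beyond hsp-16.41. Without replicate 3 they come at 37.8% and 35.8%, later than that region at 31.4%. Without replicate 1 they come at 33.0% and 27.9%, beside 38.0%.

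**Figure D3:**
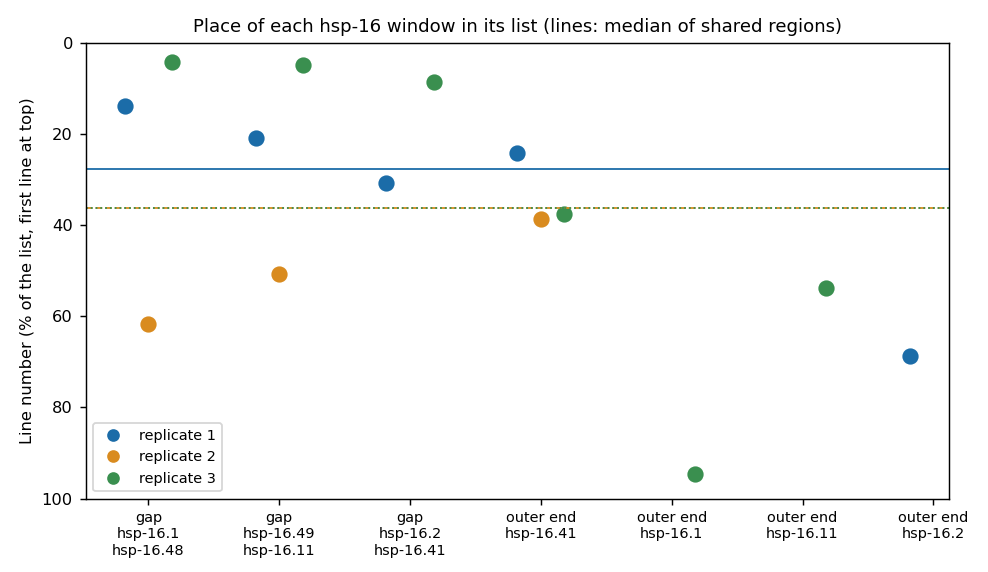
Line number of each hsp-16 window as a percentage of its list, with the start of the list at the top. Points are windows, colours are replicates, and horizontal lines are the medians of all shared regions, 27.7% in replicate 1 and 36.3% in replicates 2 and 3. In the pair gaps replicate 3 stands between 4.19% and 8.66%, and replicate 2 at 50.7% and 61.8%.

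Genes near other shared regions with the most similar places in the lists were sought by the Euclidean distance between the 3 percentages. For the gap of hsp-16.1 and hsp-16.48 the closest was xrn-1, an exoribonuclease gene, at 5.07 points, with lines 662, 1776 and 287. Next were ZK1025.8 and bah-1, which share a region, at 9.52 points. For the gap of hsp-16.49 and hsp-16.11 they were srh-138 and srw-35 at 3.42 points, both of chemoreceptor families and near the same region, and dnj-12, a DnaJ-type co-chaperone gene, at 4.53 points with lines 959, 1468 and 236. For the region beyond hsp-16.41 they were ncs-6 at 4.54 points and nape-1 and nape-2, near 1 region, at 4.88 points. The distance rests on 3 values per region.

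Other genes of the heat shock response were taken from a list. Of 29 listed genes found in the gene table, 6 lay near a shared region, and 9, 8 and 12 lay near a window of replicates 1 to 3. No window lay near 17 of them. The shares of all protein-coding genes were 9.79% for shared regions and 17.6%, 14.8% and 18.9% for the single lists. The list was chosen with earlier results known, and its counts are given as a description.

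Of the 10 other small heat shock genes, hsp-12.3 and hsp-12.6 lay near a window, where 24.8% of all protein-coding genes lay near a window of some replicate. The 2 genes share 1 region of all 3 replicates. Its window stood at line 2297, 1038 and 735 of replicates 1 to 3, with its centre 202.5, 206.5 and 239.5 bp from hsp-12.3. From hsp-12.6 the centre was farther, at 1640.5, 1644.5 and 1677.5 bp. The remaining 8 were hsp-12.1, hsp-12.2, hsp-17, hsp-25, hsp-43, sip-1 and a pair that the gene table also names as hsp-16 genes, hsp-16.20 and hsp-16.21. The latter lie on chromosome V as well, and their nearest windows lay between 22891 and 24019 bp away in all replicates.

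The heat-inducible Hsp70 genes F44E5.4 and F44E5.5 also had a window between them. They are neighbours, 350 bp apart on chromosome II, and are known as near-identical copies, so the caution on shared reads applies to them as well. All 3 replicates had a window with its centre in that gap, at 11759190 to 11759589 in replicate 1, 11759246 to 11759645 in replicate 2 and 11759228 to 11759627 in replicate 3. It stood at line 47 (1.23%), 382 (13.1%) and 28 (0.757%), earlier than any hsp-16 window of the same replicate. As at the hsp-16 gaps, replicate 3 had it earliest and replicate 2 latest. Further windows lay over or beside these genes, at line 2733 in replicate 2 and lines 3239 and 3508 in replicate 3.

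Of the larger chaperone genes, 7 of 12 lay near a window of some replicate and 3 near a shared region, against 24.8% and 9.79% of all protein-coding genes. The 3 are this Hsp70 pair, whose members share 1 region, and hsp-110. The hsp-110 gene, a nucleotide exchange factor for Hsp70, had its windows at line 1830, 2158 and 277. The constitutive Hsp70 gene hsp-1 had a window at line 1597 in replicate 1 and at line 65 in replicate 3, and none in replicate 2. The gene hsp-3, an Hsp70 of the endoplasmic reticulum, had one at line 3231 and at line 803 of the same replicates. The Hsp90 gene hsp-90 had windows at line 1608 of replicate 2 and lines 739 and 3679 of replicate 3, and the mitochondrial hsp-60 had one at line 218 of replicate 3. No list held a window near hsp-70, hsp-4, hsp-6, hsp-75 or stc-1.

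Chaperone windows were compared between replicates 1 and 3. Among regions with a window of both, the one of replicate 3 stood earlier in its list for 4 of 4 at the larger chaperone genes, 1 of 1 at the other small heat shock genes, 3 of 4 at the hsp-16 genes and 0 of 1 at the regulators. Over the genome it was so for 1002 of 2276 such regions (44.0%). The 3 hsp-16 regions earlier in replicate 3 include both facing gaps of the 4-gene cluster, which cannot be counted as separate sites. The comparison is between libraries of 1 group, was made after the values were seen and was not tested.

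Regulators of the response were mixed. The gene hsf-1 encodes the heat shock factor and lay near a shared region, with windows at line 1672, 1347 and 1752 of replicates 1 to 3, whose centres were 1085.5, 1112.5 and 1098.5 bp outside the gene. Its places were 43.9%, 46.2% and 47.4%, and replicate 3 had a further window nearby at line 2693. The gene daf-16 encodes the FOXO factor of the insulin pathway and had 3 windows in replicate 1, 2 in replicate 2 and 1 in replicate 3, but no shared region. The window of replicate 3, at line 3552, was none of those seen in the other replicates. The gene skn-1, of another stress factor, had its only window at line 1712 of replicate 3, and hsb-1, ddl-1, ddl-2 and pqm-1 had none.

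**Figure D4:**
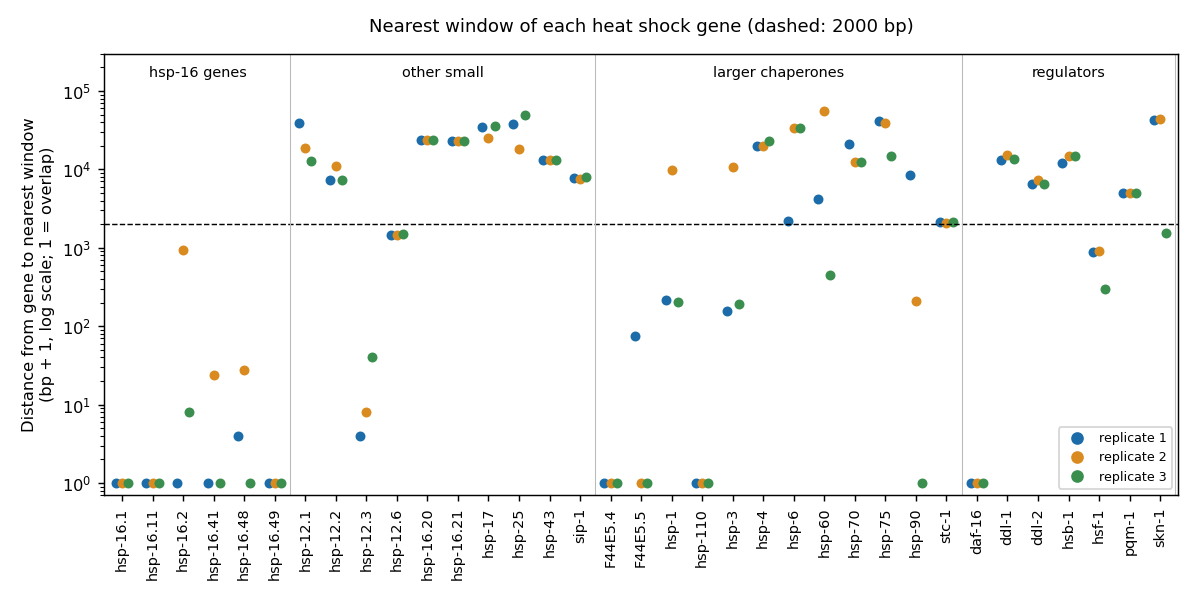
Distance in bp from each heat shock gene to its nearest window in each replicate, on a log axis after adding 1 bp, so that an overlap stands at 1. Points are replicates, and the dashed line is the 2000 bp limit. All points of the 6 hsp-16 genes lie at or under 941 bp, while 17 of the 29 other genes have all points above the limit.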

How the data were processed

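The authors deposited a headerless list of positions for each ETS-5 precipitate. Per the submitters' processing notes, the tools were Bowtie2 and MACS2, with no version or setting. No source used here gives the build, the peak threshold, the control, the line order or the treatment of reads with several matches. Starts were taken as counted from 0, since end minus start is 400, and are printed counted from 1.

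Windows were merged at 1 bp overlap and set against protein-coding genes of the RefSeq table of WBcel235, which gives gene ends but no strand. No test was run on the hsp-16 genes, whose windows chose them. The members and lists were chosen with earlier results of these data known, and the gap range of 100 to 500 bp after the windows were seen. Of 31 listed heat shock names, 29 matched a protein-coding gene. Named genes are the members, direct neighbours of the clusters, listed heat shock genes, and 3 genes per shared region by list place. The snRNA genes T27E4.10 and T27E4.11 were added after their windows were seen. Planned motif and protein comparisons were not run, since no sequence was used here. Alternatives were other distances, overlaps, replicate numbers, list parts and shifted coordinates. The search was tested on simulated lists. Python 3.11.15, numpy 2.4.6 and matplotlib 3.10.9 were used.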

Additional observations from a re-analysis of the deposited data

How the results depend on the processing

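With distances of 0, 500, 1000 and 5000 bp in place of 2000 bp, 4, 5, 6 and 6 of the 6 hsp-16 genes lay near a shared region, beside 3.72%, 5.68%, 7.25% and 16.6% of all protein-coding genes. The count was 6 with an overlap of 100 or 200 bp (9.64% and 9.41% of all genes), with at least 2 of 3 replicates (3189 of all genes in place of 1956) and without any 1 replicate (6 to 6, beside 10.7% to 12.8%). It was also 6 with the region's centre within 2000 bp outside or 500 bp inside a gene end (7.44%), a setting chosen after seeing the data. It was 2 with the first 50% of each list's lines, where only hsp-16.2 and hsp-16.41 stayed, beside 4.56% of all genes. It was 3 (hsp-16.1, hsp-16.41 and hsp-16.49) with each region given to its nearest gene only, beside 6.16%. In the first 50% of lines replicate 2 held 1 window at the hsp-16 genes in place of 3, since its gap windows stand at 50.7% and 61.8%. Without windows on an snRNA gene, also chosen after seeing the data, replicate 3 held 4 in place of 6. Windows centred in a pair gap numbered 8, and 8 and 6 after shifts of 100 bp to the left and right, 8 with at least 200 bp in the gap, and 5 to 6 without 1 replicate, since fewer lists were counted. Mean list places without 1 replicate ranged from 9.04% to 37.8% for the hsp-16.1 gap, 12.9% to 35.8% for the hsp-16.11 gap and 30.8% to 38.0% beyond hsp-16.41. No paired analysis was possible because only 1 group has lists and no result comes from a test. Depth is unknown, so the number of reads behind each window limits these counts to an extent that cannot be given.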
